A study of Mus musculus with 2 samples.

Results

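The Clec genes encode proteins with a C-type lectin-like domain, a fold that many of them use to bind sugars, lipids or other proteins. Members were picked by a naming rule: of the 20938 genes measured, 33 have a symbol that starts with Clec and a digit, and Clec9a, Clec10a and Clec4a4 were set aside, which left 30 genes. The naming rule uses no measured value, although it was set with earlier results of these data known. A gene is described where its mean level over both libraries was at least 1, which held for 22 of the 30 members and for 16659 of all genes. The described member nearest to this limit was Clec3b, with a mean level of 3.39. The other 8 members had 0 reads in both libraries.

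RNA-seq was performed on splenic regulatory T (Treg) cells on day 7 after islet allotransplantation, to ask how reduced METTL14, a subunit of the enzyme that writes the m6A mark on mRNA, alters the transcripts of these cells. Foxp3-Mettl14f/+ cKO mice and their littermate controls each gave 1 library, called the cKO sample and the control sample here. In the cKO mice Cre recombinase under the Foxp3 promoter deletes 1 floxed Mettl14 allele, so the deletion is heterozygous and limited to cells that have expressed Foxp3; the littermate controls are Mettl14f/f by the methods and wild type by the sample labels. The labels call the cKO sample a Foxp3 knockdown, titled KD, and the genotype of the methods is used here. All recipients had a C57BL/6J background and streptozotocin-induced diabetes, carried BALB/c islets under the kidney capsule and received no antibodies that induce tolerance. Spleen cells were depleted of non-CD4+ cells and CD4+CD25+ cells were then selected on beads. How many animals went into each library, and their age, is not given in the sources used here.

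C-type lectin receptors of the Clec families are known chiefly from myeloid cells, where they read fungal and bacterial sugars and glycolipids or products of dying cells. The activating receptors signal through an ITAM-like motif of their own or through the adaptors FcR gamma and DAP12 to the kinase Syk and on to the CARD9 module, whereas receptors with an ITIM recruit phosphatases that oppose this. The Clec2 proteins, also called Clr, are ligands of the NKR-P1 receptors of natural killer (NK) cells, and other members are known from endothelium, liver or the extracellular matrix.

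The libraries held 20239325 reads (control) and 18327535 reads (cKO), recovered from the deposited levels, which are reads divided by 1 size factor per library. Each genotype has 1 library and thus no replicates, so none of the differences below has a replicate check, and genotype and library cannot be told apart. Intervals are exact 95% Clopper-Pearson intervals of the reads and take in counting error alone. They treat reads as independent molecules, which sequenced reads need not be, so they can be too narrow. Mettl14 had 948 reads in the control sample and 652 in the cKO sample (log2 difference -0.31, interval -0.45 to -0.16, but 0.05 with 16 T cell core genes, Cd3d and Lck among them, scaled to equality), and Foxp3 had 1547 and 1361 (0.05, -0.06 to 0.15, but 0.40 under the same T cell scaling). That scaling also shifts the all-gene median, from -0.04 to 0.31. Of 16659 genes, those higher by 1.5-fold or more rose from 2864 to 5153 under it, and those lower fell from 4028 to 3126. Markers of Treg and other T cells were present in both libraries, as were those of other cells, and of 12 Treg markers 1 was higher and 1 lower in the cKO sample, or 5 and 0 under the T cell scaling. All 12 macrophage markers were higher by 1.5-fold or more in the cKO sample, with a summed level of 4846 against 19629, and so were all 10 B cell markers (7570 and 38674). Of 9 monocyte markers 6 were higher, with a summed level of 14878 in the control and 23735 in the cKO sample, and of 12 neutrophil markers 4 were higher and 1 lower, with sums of 247362 and 341651; under the T cell scaling all 9 monocyte markers and 8 neutrophil markers were higher. None of the markers in these 4 lists was at 0 in either library. Of 11 erythroid markers 6 were lower in the cKO sample, 1 (Hbb-bs) was higher and 4 were inside 1.5-fold, and under the T cell scaling 2 were higher and 6 lower. Hbb-bs had 3 and 2626 reads, while without that scaling the globin genes Hbb-bt, Hba-a1 and Hba-a2 were inside 1.5-fold. The reason was not tested. In bulk samples such as these, fewer cells of a type and less RNA per cell cannot be told apart.

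Of the 22 described members, 11 were higher by 1.5-fold or more in the cKO sample and 6 were lower by 1.5-fold or more, with 5 inside that range. Among all 16659 genes compared, 17.2% were higher by 1.5-fold or more and 24.2% lower by 1.5-fold or more, against 50% and 27.3% of the described members. The median log2 difference of the members was 0.61, also with members at 0 reads set at their difference against 3 reads, while the median of all genes was -0.04. When a gene also had to pass a two-sided exact binomial test on recovered reads, which compares these libraries and not the genotypes, 11 of 20 members tested were higher and 4 lower, beside 14.8% and 17.6% of 14863 genes. Among these 11 is Clec4g, whose counting-error interval includes 0. The reads of all members summed to 12400 and 13649. The activating and DCIR/MICL groups together held 4753 and 7374 reads, and 9 of their 12 described members were higher and 1 lower. Nearest to the 1.5-fold limit were Clec4d, past it at 1.57-fold, and Clec12a, short of it at 1.49-fold.

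**Figure D1:**
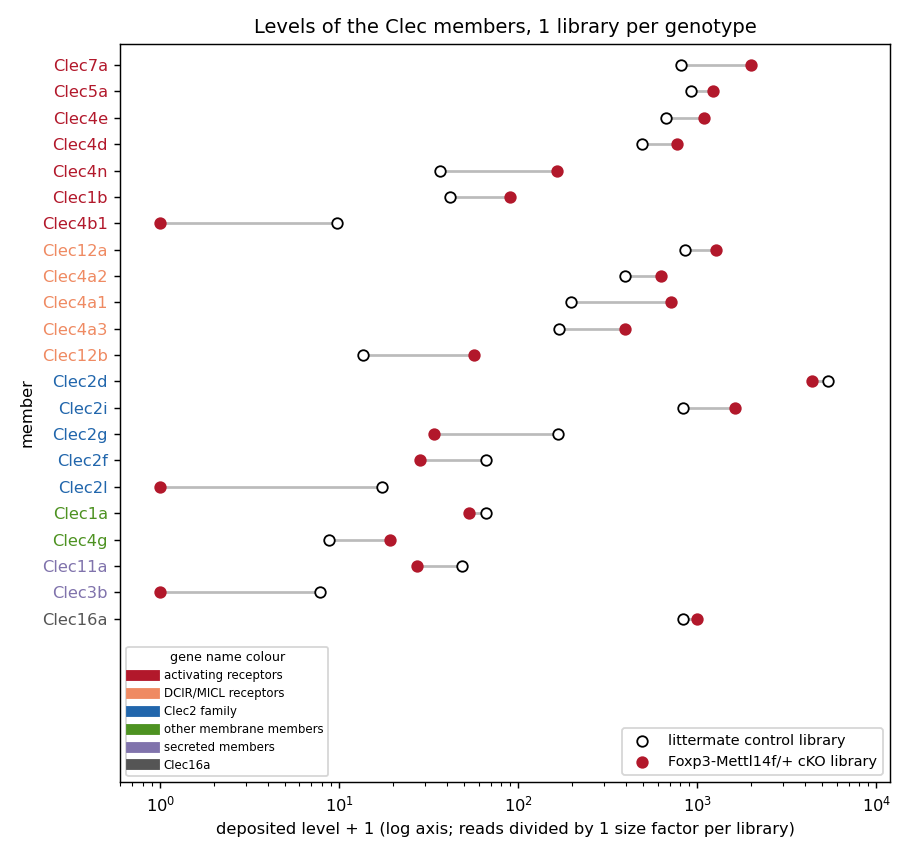
Level of each described Clec member (deposited level plus 1, log axis) in the littermate control sample (open circles) and in the Foxp3-Mettl14f/+ cKO sample (filled circles), 1 library each; name colours mark the role groups. Clec2d has the highest level in both libraries, and the filled circle lies to the right for most activating and DCIR/MICL receptors.

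By their annotation in GENCODE vM21 (genome build GRCm38, the mm10 assembly), 29 members could be placed, 22 of them on chromosome 6, and Clec2m was not matched. Only members were put in order, so other genes between them are left out, such as Clec9a, whose exons overlap those of Clec1b. A first run of neighbouring members on chromosome 6, from Clec4a1 at position 122921848 to Clec4e at 123289870, holds 8 members. In that run 6 members were higher by 1.5-fold or more in the cKO sample, Clec4b1 was lower and Clec4b2 had 0 reads in both. A second run of 11 members, from Clec2h at 128662385 to Clec7a at 129472779, was mixed, with 4 higher, 2 lower, 3 inside 1.5-fold and 2 at 0 in both. Within it the Clec2i gene (128887588 to 128898167) was higher while its neighbours Clec2g (128934381 to 128984707) and Clec2f (129014112 to 129020527) were lower.

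**Figure D2:**
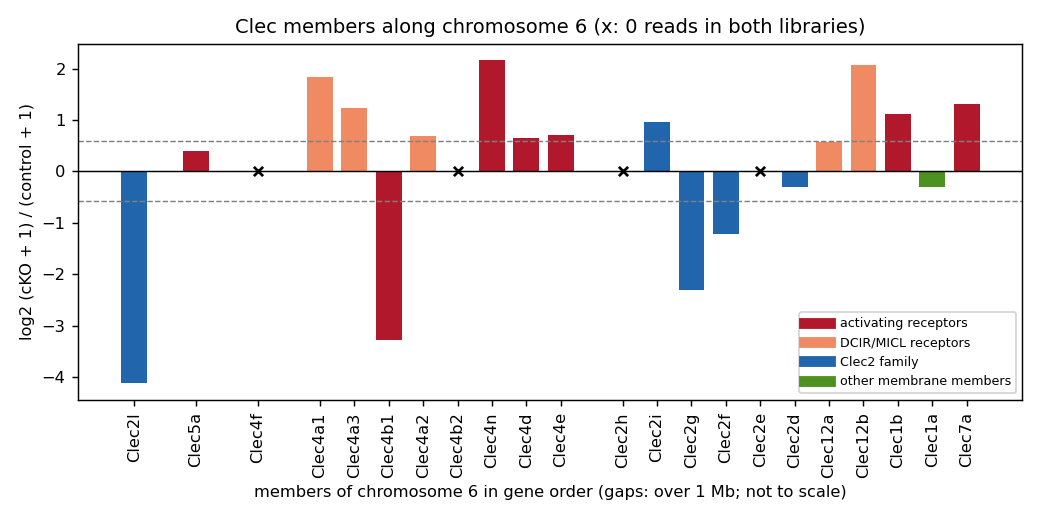
Log2 difference (cKO level plus 1 over control level plus 1) of the members of chromosome 6 in gene order, with gaps where neighbours lie more than 1 Mb apart; bar colours mark the roles, crosses mark members at 0 reads in both libraries and dashed lines mark 1.5-fold. Of the 8 members from Clec4a1 to Clec4e 6 point up past the line, and the bars of Clec2l and Clec4b1 depend on the pseudocount because both had 0 reads in the cKO sample.

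Promoters are shown for neighbours that were higher together (Clec4a1 and Clec4a3), for neighbours that differed in direction (Clec2i and Clec2g), and for Clec7a and Clec5a, the activating receptors with the most reads in the cKO and in the control sample. Each sequence is the 250 bases before a RefSeq transcript start (GRCm38.p6), printed 5′ to 3′ on the strand of the gene, with matches to AGGAAG, the core of sites of ETS factors such as PU.1, in capitals where found on either strand. The second motif searched, TTGCNNAA for C/EBP factors, matches none of these 6 windows; neither motif is contained in the other.
Clec4a1, chr6:122921598-122921847, plus strand: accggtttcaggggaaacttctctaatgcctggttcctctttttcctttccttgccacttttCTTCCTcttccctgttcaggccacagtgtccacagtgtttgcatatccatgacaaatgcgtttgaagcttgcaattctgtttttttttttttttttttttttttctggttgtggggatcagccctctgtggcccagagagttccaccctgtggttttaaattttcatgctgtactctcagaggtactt
Clec4a3, chr6:122952265-122952514, plus strand: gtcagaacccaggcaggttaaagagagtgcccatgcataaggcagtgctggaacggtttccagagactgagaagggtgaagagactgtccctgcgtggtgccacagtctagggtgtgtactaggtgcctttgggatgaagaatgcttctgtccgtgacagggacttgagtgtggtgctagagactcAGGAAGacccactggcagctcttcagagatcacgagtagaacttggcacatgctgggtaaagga
Clec2i, chr6:128887337-128887586, plus strand: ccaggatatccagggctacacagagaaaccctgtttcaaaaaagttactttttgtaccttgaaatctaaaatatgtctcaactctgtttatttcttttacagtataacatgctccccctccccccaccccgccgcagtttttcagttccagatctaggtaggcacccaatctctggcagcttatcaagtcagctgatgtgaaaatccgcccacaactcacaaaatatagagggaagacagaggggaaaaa
Clec2g, chr6:128934131-128934380, plus strand: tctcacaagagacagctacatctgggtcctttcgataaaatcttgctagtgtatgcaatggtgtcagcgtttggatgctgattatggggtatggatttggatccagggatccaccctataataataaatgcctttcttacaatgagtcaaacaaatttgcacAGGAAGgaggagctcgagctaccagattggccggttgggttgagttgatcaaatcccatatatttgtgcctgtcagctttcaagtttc
Clec7a, chr6:129472780-129473029, minus strand: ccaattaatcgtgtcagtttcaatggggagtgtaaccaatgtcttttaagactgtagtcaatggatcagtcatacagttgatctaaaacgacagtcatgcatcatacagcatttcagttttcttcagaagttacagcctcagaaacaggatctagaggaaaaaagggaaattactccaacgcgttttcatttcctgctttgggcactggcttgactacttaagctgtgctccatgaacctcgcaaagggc
Clec5a, chr6:40585806-40586055, minus strand: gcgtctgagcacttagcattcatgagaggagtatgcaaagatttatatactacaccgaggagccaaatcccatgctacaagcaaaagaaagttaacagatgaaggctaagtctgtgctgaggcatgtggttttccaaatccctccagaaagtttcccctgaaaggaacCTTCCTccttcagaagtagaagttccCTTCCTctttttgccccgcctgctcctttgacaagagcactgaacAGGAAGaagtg

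The Clec5a window has 3 matches to the ETS core, the printed Clec4a1, Clec4a3 and Clec2g windows have 1 each, and the Clec2i and Clec7a windows have 0. Clec4a3, Clec2i and Clec7a each have another RefSeq start, whose windows are not printed and have 2, 0 and 0 matches. The table of promoters held 18 of the 22 described members, the others being Clec1a, Clec2f, Clec3b and Clec4n. Of these 18 genes 9 had the ETS core in at least 1 window, or 50%, against 32.3% of 27025 genes and 29.5% of 32851 single windows. The C/EBP motif was found in 4 of them, or 22.2%, against 10.8% of all genes and 9.56% of windows. A match is a description of the letters only, and it was found both in members that were higher, such as Clec4a1, and in members that were lower, such as Clec2g.

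Among the activating receptors, 5 of 7 described members were higher by 1.5-fold or more in the cKO sample, 1 was lower and Clec5a was inside that range. The summed level of the group was 2973 in the control sample and 5318.5 in the cKO sample, a log2 ratio of 0.84 (interval 0.77 to 0.91). Clec7a, which encodes Dectin-1, the receptor for fungal beta-glucan, had 833 reads in the control sample and 1750 in the cKO sample. Its level was 806 and 1990, a log2 difference of 1.30 (interval 1.18 to 1.42), and its share of the group's reads was 27.1% and 37.4%. GENCODE annotates Clec7a (129461591 to 129472779, minus strand) as a polymorphic pseudogene, and none of its 50-base stretches is shared with the transcripts of another gene.

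Clec4n encodes Dectin-2, a receptor for fungal mannans that pairs with FcR gamma, and it had the largest ratio of the activating receptors with reads in both libraries. It had 37 reads in the control and 144 in the cKO sample, or levels of 35.8 and 164, a log2 difference of 2.16 (interval 1.66 to 2.76). Clec4d and Clec4e encode MCL and Mincle, partner receptors for mycobacterial glycolipid, and lie next to each other on chromosome 6. Clec4d had 510 and 680 reads (log2 difference 0.65, interval 0.48 to 0.82). Clec4e had 688 and 953 reads (0.70, interval 0.56 to 0.85), so the intervals of these neighbours overlap. Clec5a, the DAP12-coupled receptor MDL-1, had the most reads of the group in the control sample, 954, and 1072 in the cKO sample. Its log2 difference was 0.40 (interval 0.27 to 0.53), below the 1.5-fold limit, and its share of the group's reads was 31.0% in the control and 22.9% in the cKO sample.

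The remaining activating receptors had few reads. Clec1b, which encodes CLEC-2, the platelet receptor for podoplanin, had 42 reads in the control and 78 in the cKO sample (log2 difference 1.11, interval 0.57 to 1.70). Exons of Clec1b overlap those of Clec9a, so its reads are uncertain. Of 11 megakaryocyte and platelet markers 10 passed the filter, and 5 were higher and 1 lower. With TMM or median-of-ratios scaling 4 were higher and 1 lower, and with T cell core genes scaled to equality 6 and 0. Their summed level was 2558 and 2829, and Pf4, the platelet chemokine, had 58 and 97 reads. Gp6 was at 0 in both libraries, and the part of these cells in the Clec1b result was not tested. Podoplanin itself (Pdpn) had 0 reads in both. Clec4b1, an activating receptor of dendritic cells, had 9 reads in the control and 0 in the cKO sample. It would be 2.55-fold lower if set at 3 reads in the cKO sample, which is no firm bound. Such zeros were common: 956 of the 1702 genes that had 7 to 17 control reads (56.2%) showed 0 cKO reads, and 259 of the 1124 genes with that many cKO reads (23.0%) showed 0 control reads. Clec4b2 had 0 reads in both.

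**Figure D3:**
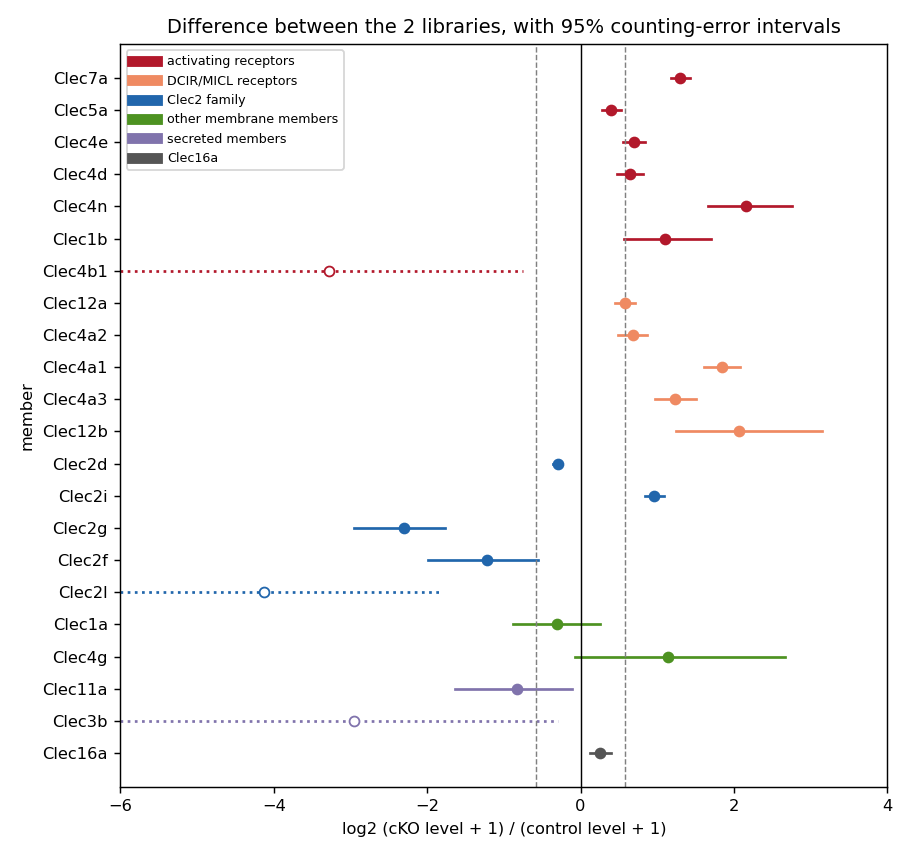
Log2 difference of each described member (cKO level plus 1 over control level plus 1) as a point with its exact 95% counting-error interval, coloured by role, with dashed lines at 1.5-fold. Dotted lines and open points mark members with 0 reads in the cKO sample, whose intervals have no lower end; the intervals of Clec4a1, Clec4a3, Clec4n, Clec7a and Clec12b lie wholly past the upper dashed line, as does that of Clec2i.

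The DCIR and MICL receptors, whose best known members carry an ITIM and restrain myeloid cells, were higher as a group, with a summed level of 1625 in the control sample and 3067 in the cKO sample (log2 ratio 0.92, interval 0.83 to 1.005). Of the 5 members 4 were higher by 1.5-fold or more. Clec4a1, the first gene of the chromosome 6 run and a relative of DCIR, had 204 and 624 reads. Its level was 197 and 710, a log2 difference of 1.84 (interval 1.62 to 2.08), and its share of the group's reads was 12.1% and 23.1%. Its neighbour Clec4a3, another relative of DCIR, had 174 and 348 reads (1.23, interval 0.97 to 1.50), so the intervals of the pair do not overlap. Clec4a2 encodes DCIR itself, an ITIM receptor of dendritic cells and other myeloid cells. It had 405 and 552 reads (0.68, interval 0.49 to 0.87), and 6.83% of its 50-base stretches are shared with other transcripts, Clec4a4 and Clec4b1 among them. Clec4a4, which the naming rule left out, had 60 and 56 reads (0.13, interval -0.42 to 0.68).

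Clec12a and Clec12b are ITIM receptors that lie side by side on chromosome 6. Clec12a, or MICL, which senses uric acid crystals and dead cells, held the most reads of this group, 884 in the control and 1124 in the cKO sample. Its log2 difference of 0.58 (interval 0.45 to 0.71) was just under 1.5-fold, and its share of the group's reads was 52.6% and 41.7%. Clec12b had 13 and 49 reads, or levels of 12.6 and 55.7, a log2 difference of 2.06 (interval 1.24 to 3.15). The wide interval of Clec12b does not overlap that of Clec12a. The 13 control reads of Clec12b lie in the range of 7 to 17, where 56.2% of genes had 0 cKO reads, so its interval can be too narrow.

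Beside these 2 receptor groups stand the markers of myeloid cells, whose part in the difference was not tested. The log2 ratio of summed levels was 2.02 for the macrophage markers, 0.67 for the monocyte markers and 0.47 for the neutrophil markers, against 0.84 and 0.92 for the activating and DCIR/MICL receptors. Of 7 dendritic cell markers 2 were higher and none lower, with sums of 2596 and 3516, or 4 higher with T cell core genes scaled to equality. The bead depletion was aimed at cells without CD4, and S100a9, a neutrophil calcium-binding protein, had 76931 and 89733 reads.

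**Figure D4:**
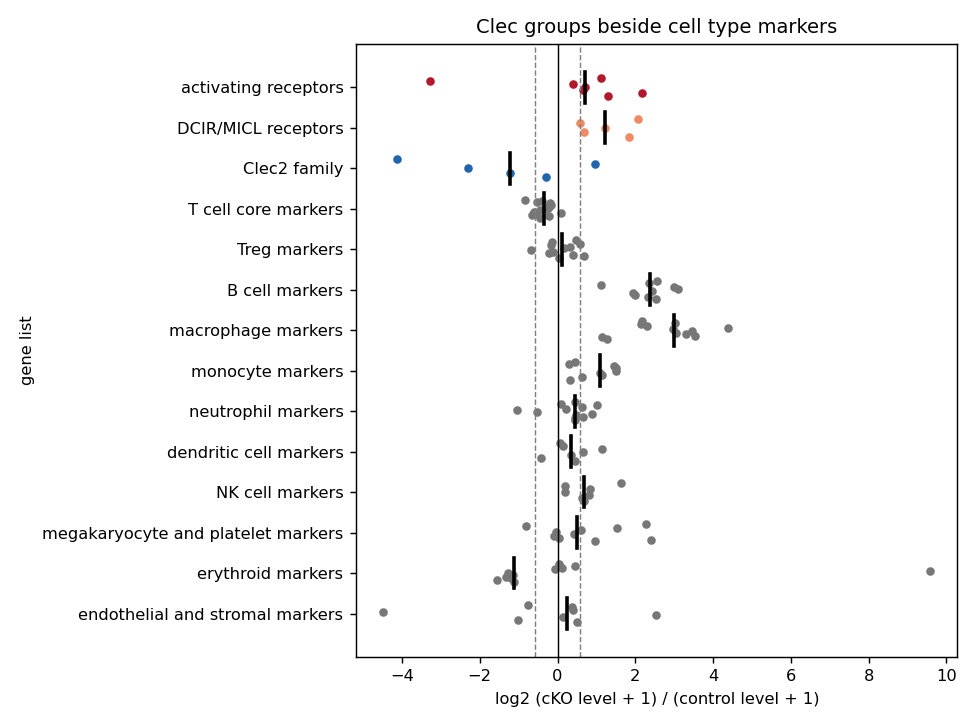
Log2 difference of single genes (points) and list medians (black bars) for 3 Clec groups above and 11 cell type marker lists below, with dashed lines at 1.5-fold. The medians of the activating receptors (0.70) and DCIR/MICL receptors (1.23) lie between those of the neutrophil markers (0.46) and macrophage markers (2.99), and the far right erythroid point is Hbb-bs, with 3 reads in the control and 2626 in the cKO sample.

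The Clec2 genes differed among themselves. Of 5 described members Clec2i was higher by 1.5-fold or more in the cKO sample, Clec2g, Clec2f and Clec2l were lower, and Clec2d was inside that range. Their summed level was 6443 and 6047, a log2 ratio of -0.09 (interval -0.14 to -0.04), which was 0.26 with T cell core genes scaled to equality, so the direction of the sum depends on scaling. Clec2d encodes Clr-b, the widely expressed ligand of the inhibitory NK cell receptor NKR-P1B. It was the most abundant member in both libraries, with 5543 reads in the control and 3838 in the cKO sample, which is 44.7% and 28.1% of the reads of all members. Per kilobase of exon its level was 4421 and 3598, while the next highest member per kilobase was Clec4d at 309 in the control sample and Clec7a at 754 in the cKO sample. The log2 difference of Clec2d was -0.30 (interval -0.36 to -0.24), and 0.06 with T cell core genes scaled to equality. The T cell core genes themselves had a summed level of 62771 and 49210 and a median log2 difference of -0.35, with 3 of 16 lower and none higher; their part in the Clec2d value was not tested.

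Clec2i, which encodes Clr-g, a ligand of the receptor NKR-P1F, had 861 reads in the control sample and 1427 in the cKO sample. Its log2 difference was 0.96 (interval 0.84 to 1.09), and its share of the Clec2 reads was 12.9% and 26.8%. Clec2g, the member next to it, went the other way, with 172 reads in the control and 29 in the cKO sample (-2.30, interval -2.96 to -1.76). Of the 50-base stretches of Clec2i 4.13% are shared with other transcripts, and for Clec2g 3.90%, each including the other gene, so some of their reads could be assigned to either. Clec2f, annotated as a transcribed unprocessed pseudogene, had 67 and 24 reads (-1.22), and the upper end of its interval was -0.56. Clec2l, a relative known from brain, lies apart at position 38663069 to 38680864 and had 17 reads in the control and 0 in the cKO sample. Set at 3 reads in the cKO sample it would be 4.82-fold lower. That is no firm bound, because 56.2% of genes with 7 to 17 control reads had 0 cKO reads. Clec2e, Clec2h and Clec2m had 0 reads in both libraries.

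Genes of the NKR-P1 receptor family, some of which bind Clec2 proteins, were measured as well, and Klrb1 had 0 reads in both libraries. Klrb1b, which encodes the receptor for Clr-b, had 151 and 233 reads (log2 difference 0.85, interval 0.56 to 1.16). Klrb1f, which encodes a receptor for Clr-g, had 166 and 310 reads (1.13, interval 0.86 to 1.42), so this receptor and its ligand Clec2i were both higher in the cKO sample. Klrb1c, the NK1.1 receptor and the NKR-P1 gene with the most reads, had 582 and 768 (0.63, interval 0.48 to 0.79), while Klrb1a, with 29 and 24 reads, had a value of -0.04 (interval -0.88 to 0.79), or 0.30 with T cell core genes scaled to equality. Of 7 NK cell markers, Klrb1c included, 5 were higher and none lower, with sums of 4277 and 6623, and their part in these values was not tested.

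The members known from endothelium and liver were scarce. Clec1a, a receptor of endothelium and myeloid cells for fungal melanin, had 67 reads in the control and 46 in the cKO sample (log2 difference -0.30, interval -0.88 to 0.25), and its value was 0.04 with T cell core genes scaled to equality. Clec4g, or LSECtin, of sinusoidal endothelium in liver and lymph node, had 8 and 16 reads, and its exons overlap those of Gm16553. Its log2 difference of 1.14 was past 1.5-fold and passed the binomial test at an adjusted p under 0.1, but the interval, -0.08 to 2.67, includes 0. Clec4f, a marker of the macrophages of the liver, and Clec14a, of endothelium, had 0 reads in both. The floor of 3 reads is a level of 2.90 (control) and 3.41 (cKO), but it is no firm bound, because zeros were common. Of 9 endothelial and stromal markers 1 (Stab2) was higher and 3 (Cdh5, Tek and Pdgfrb) were lower, or 4 higher and 2 lower with T cell core genes scaled to equality. Their sums were 2721 and 3816, of which Pecam1 alone made up 2263 and 3225. Col3a1 was at 0 in both libraries and Tek at 0 in the cKO sample.

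Of the secreted members, Clec11a, a growth factor for bone and blood progenitors, had 49 reads in the control and 23 in the cKO sample (log2 difference -0.83, interval -1.64 to -0.12). Clec3b, which encodes the plasminogen-binding protein tetranectin, had 7 and 0 reads. It would be 1.98-fold lower if set at 3 reads in the cKO sample, where zeros were common at such read numbers. The sum of this group was 54.2 and 26.2, and Clec3a and Clec18a had 0 reads in both libraries. Clec16a encodes an intracellular protein of the autophagy and mitophagy pathway and shares little with the receptors except its name. It had 856 reads in the control and 872 in the cKO sample, a log2 difference of 0.26 (interval 0.12 to 0.40), inside the 1.5-fold range.

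The partners that carry the receptor signal were compared from a list of 20 genes, of which 12 were higher by 1.5-fold or more in the cKO sample and none lower, with a median log2 difference of 0.70. Among all genes compared 17.2% were higher and 24.2% lower. The count depends on scaling: with T cell core genes scaled to equality, all 3 adaptors, 8 of 9 kinases, lipases and exchange factors and 2 of 3 phosphatases were higher. Under that scaling 5153 of all 16659 genes were higher. Of the adaptors, Fcer1g, which encodes FcR gamma, the partner of Dectin-2, MCL and Mincle, had 1574 and 2351 reads (0.81, interval 0.72 to 0.91). Tyrobp, which encodes DAP12, the partner of MDL-1, had 2081 and 2881 reads (0.70, interval 0.62 to 0.78), and Hcst, which encodes DAP10, had 236 and 293 (0.54, interval 0.29 to 0.80). Each of these 3 intervals overlaps that of the summed activating receptors, 0.77 to 0.91.

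Of 9 kinases, lipases and exchange factors 7 were higher. Syk, the kinase next to the receptors, had both the highest mean level and the largest difference of that list, with 5385 and 11280 reads (1.30, interval 1.25 to 1.35), an interval that lies within that of Clec7a. The smallest value was that of Vav3, with 1174 and 1086 reads (0.12). In the CARD9 module, which carries the signal to NF-kappaB, 2 of 5 genes were higher, namely Malt1, with 3157 and 4344 reads (0.69), and Card9, with 707 and 909 (0.60); with the TMM or median-of-ratios scaling 1 of the 5 was higher, and with T cell core genes scaled to equality 3 were. Bcl10, the third protein of the complex, had 1089 and 1000 reads (0.11, interval -0.01 to 0.24). Among the phosphatases that ITIM receptors recruit, Ptpn6, or SHP-1, had the most reads, 7001 and 8132 (0.45), Inpp5d, or SHIP-1, had 4505 and 6488 (0.76), and Ptpn11, or SHP-2, had 3882 and 3012 (-0.13, but 0.22 with T cell core genes scaled to equality). Many of these genes are also expressed by B cells, whose markers were all higher in the cKO sample, and the part of B cells in these values was not tested.

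**Figure D5:**
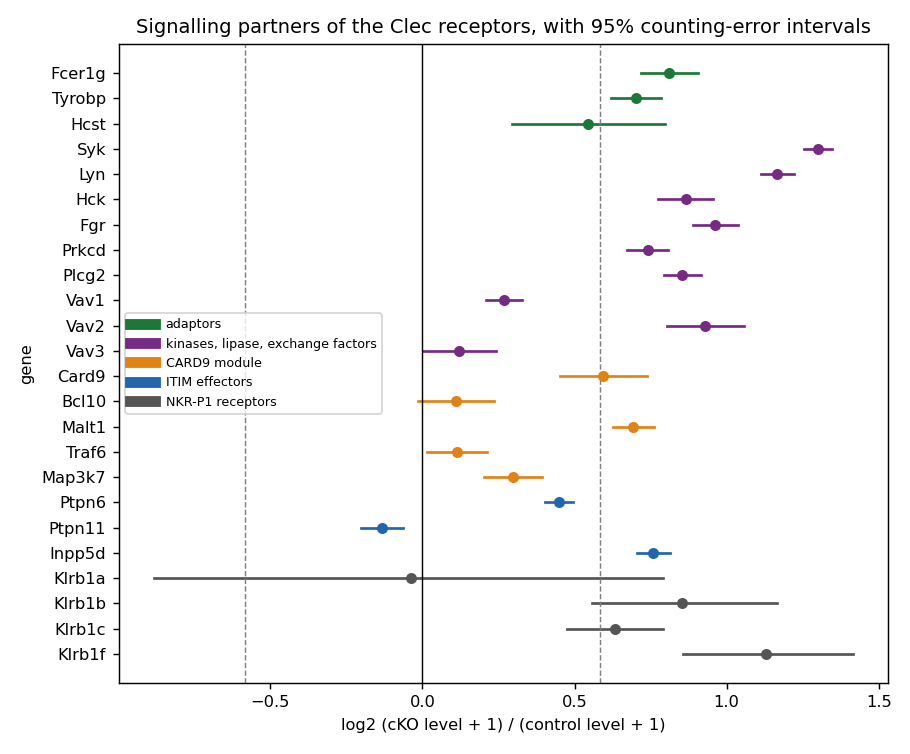
Log2 difference (cKO level plus 1 over control level plus 1) of the signalling partners of the Clec receptors and of the NKR-P1 receptors, with exact 95% counting-error intervals, coloured by function, with dashed lines at 1.5-fold. Syk has the largest value (1.30) and Ptpn11 the lowest (-0.13, or 0.22 with T cell core genes scaled to equality), and no gene lies past the lower line.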

How the data were processed

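The authors isolated mRNA from Treg cells, sequenced it on an Illumina instrument and, by the methods, aligned reads to the mouse genome (mm10) with TopHat; the submitters' processing notes name bcl2fastq 2.0, STAR, StringTie and DESeq2 without their roles. The deposited values are a signal, namely reads per gene divided by 1 size factor per library: 100% were whole multiples of the smallest value (0.967 and 1.14) within 0.001 reads. Dividing by it recovered 20239325 and 18327535 reads, a depth at which 3 reads, used as the floor, are a level of 2.90 and 3.41. A pseudocount of 1 was added to each level, and the log2 ratio of cKO to control was taken, for genes with a mean of at least 1, and called past 1.5-fold, the study's threshold. The study's second threshold, 0.1, was read as an adjusted p and used with the exact binomial test (Benjamini-Hochberg, totals scaled by TMM, at least 10 reads). Intervals carry no pseudocount. The sample labels gave the groups, with 1 library each, so no test between genotypes was possible.

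All described members were named; of the pathway lists, the adaptors and, in each list, the genes with the highest mean and the largest rise and fall. Bcl10, Card9, Klrb1a and single markers outside that rule were named after their values were seen. A listed gene is not reported here. The naming rule and the lists were set with earlier results of these data known. Sharing of 50-base stretches was counted over GENCODE vM21 transcripts. Promoters are from RefSeq. Steps were tested on simulated data with counting error alone, so that test does not cover the frequent zeros seen here. Python 3.11.15 (numpy 2.4.6, scipy 1.17.1, pandas 2.3.3, matplotlib 3.10.9) were used, as were edgeR 4.0.16 and DESeq2 1.42.0 for scalings in R 4.3.3.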

Additional observations from a re-analysis of the deposited data

How the results depend on the processing

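No paired analysis was possible because there is 1 library on each side. Under both other pseudocounts (0.1 and 5), with no low-value filter, and under TMM or median-of-ratios scaling, the same 11 Clec members were higher by 1.5-fold or more and the same 6 lower. A minimum mean of 10 left 3 members and 2035 of all genes lower, and keeping only genes above 0 in both libraries left 3 members and 1904 genes lower; both remove Clec2l, Clec3b and Clec4b1, which had 0 reads in the cKO sample. With T cell core genes scaled to equality, the median of all genes moved from -0.04 to 0.31, and 5153 genes were higher by 1.5-fold or more. Under that scaling 14 members were higher, Clec12a, Clec16a and Clec5a being added, and 5 were lower, without Clec11a. The median of the members was then 0.97, and the log2 ratio of summed levels was 1.19 for the activating receptors, 1.27 for the DCIR/MICL receptors, 0.26 for the Clec2 genes and 0.61 for Clec16a. A threshold of 2-fold left 7 members higher, without Clec2i, Clec4a2, Clec4d and Clec4e, and 1722 genes higher. The exact binomial test with 1.5-fold called 2617 genes lower and, of the members, 4, without Clec3b and Clec4b1, which had under 10 reads. Of 110 values of single members under these alternatives, 11 moved beyond their counting-error interval, each with T cell core genes scaled to equality.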

Other observations

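Other genes with a C-type lectin domain but another name were compared in the same way. Of 25 listed, 18 were past the filter. In the cKO sample 7 were higher by 1.5-fold or more and 1 lower, with a median log2 difference of 0.50. Among all genes compared 17.2% were higher and 24.2% lower. With T cell core genes scaled to equality 12 of the 18 were higher and 1 lower, with a median of 0.85. Under that scaling 5153 of all 16659 genes were higher and 3126 lower. Mrc1, the macrophage mannose receptor, had 212 reads in the control sample and 1258 in the cKO sample (2.80, interval 2.59 to 3.02). Fcer2a, the low-affinity IgE receptor CD23 of B cells, had 265 and 1326 reads (2.55), and Cd72, an ITIM receptor of B cells, had 432 and 1117 (1.60). Cd248, which encodes the stromal protein endosialin, was the lower gene, with 136 and 25 reads (-2.17, interval -2.89 to -1.59). Cd209d, a relative of DC-SIGN, had 0 and 8 reads, and its interval started at 1.005. Of the genes that the naming rule left out, Clec9a, the dead-cell receptor of cross-presenting dendritic cells, had 174 and 124 reads (-0.25), and Clec10a, a galactose-type lectin of macrophages, had 77 and 57 (-0.20). Both were inside 1.5-fold, as were 5 of the 7 dendritic cell markers.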
